A study of Homo sapiens with 18 samples.

Results

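The 373 enhancers of the histone and HLA region of human chromosome 6 were examined, out of 94527 enhancers called across the genome of LNCaP cells by WHG-STARR-seq. They are all the called enhancers whose centre lies from 25 to 34 Mb in hg19, whether or not they overlap a DNase I site, and an enhancer listed with several DNase I sites was counted once. A total of 72 enhancers overlapped a DNase I site and are called open, and the other 301 are called closed. These DNase I sites, called through the ENCODE pipeline, come from other LNCaP data and from no library of this series. The interval of 9 Mb was divided at gene boundaries into a histone segment, a zinc finger and olfactory receptor segment, the HLA class I, class III and class II segments, and an extended class II segment. At the lower edge, the last enhancer left out was a closed one with a fold enrichment of 9.97 and the first one kept was closed at 3.17. At the upper edge, the last one kept was closed at 1.95 and the first one left out was open at 1.66.

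In STARR-seq, pieces of genomic DNA are cloned downstream of a minimal promoter, where an active piece raises the amount of its own sequence in the reporter RNA. The plasmid has no native chromosomal position, and a fragment that is silent in closed chromatin of the cell can therefore be active in the assay. The interval holds the largest cluster of replication-dependent histone genes, whose mRNAs end in a stem-loop in place of a poly(A) tail, followed by arrays of butyrophilin, zinc finger and olfactory receptor genes. The HLA class I genes encode the molecules that present peptides on most nucleated cells, the class II genes encode those of professional antigen-presenting cells, and the class III segment between them holds complement, cytokine and heat shock genes. Many of these genes arose by duplication, so near-identical copies are frequent.

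LNCaP cells derive from a human prostate carcinoma. The study comprised 18 libraries: 1 library of the input plasmids, 2 output replicates taken 72 h after electroporation, 3 ATAC-seq libraries each of cells given trichostatin A (TSA) at 100 ng/ml or the vehicle DMSO for 24 h, and 3 mRNA-seq libraries each of TSA-treated, DMSO-treated and untreated cells. Transfected and treated cells were kept in medium with charcoal-stripped serum, which is low in androgen. TSA inhibits histone deacetylases. The plasmid library was made from commercial human genomic DNA and not from LNCaP cells, so the alleles tested in the reporter, including those of the variable HLA genes, need not be those of the cells. The mRNA was isolated through its poly(A) tail, which most histone mRNAs lack, so histone levels given below cover only polyadenylated transcripts. Both outputs were pooled before peaks were called and the ATAC libraries of a condition were pooled before their peaks were called, so no value given here has an error between replicates. Intervals are at the 95% level and cover counting error only, by the Wilson method for a share and by the exact Poisson method for the output fragments of a fold, with the scaled input held fixed. The luminal prostate markers in the mRNA-seq averages lay from 4.41 log2 CPM (KLK2) to 8.70 (KRT8), with KLK3 at 8.04. The leukocyte markers PTPRC, CD74, CIITA, CD3E and LYZ lay from −2.62, the lowest value in the table, to −1.51. Of the basal and fibroblast markers, KRT5 at 6.23, VIM at 5.88 and COL1A1 at 6.77 were also high, while KRT14, TP63 and COL1A2 lay from −1.89 to 0.37.

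The sequences of selected enhancers show what was measured. They are read from GRCh37, the same assembly as hg19, around the summit and without bases annotated as UTR. All are given on the plus strand.

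A pair of closed enhancers upstream of MICA and MICB, which encode stress-induced ligands of the NKG2D receptor, is shown because the copies are nearly the same. The MICA copy had a fold of 12.9 and the MICB copy one of 11.4. The stretches at chr6:31358429-31358668 and chr6:31455344-31455583 had 238 of 240 bases in common, and capitals mark the bases that differ.
MICA upstream: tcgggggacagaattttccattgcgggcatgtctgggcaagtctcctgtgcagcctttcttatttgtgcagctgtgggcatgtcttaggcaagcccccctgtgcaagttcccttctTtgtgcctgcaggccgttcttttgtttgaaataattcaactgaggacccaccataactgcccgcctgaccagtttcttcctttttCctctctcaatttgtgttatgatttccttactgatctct
MICB upstream: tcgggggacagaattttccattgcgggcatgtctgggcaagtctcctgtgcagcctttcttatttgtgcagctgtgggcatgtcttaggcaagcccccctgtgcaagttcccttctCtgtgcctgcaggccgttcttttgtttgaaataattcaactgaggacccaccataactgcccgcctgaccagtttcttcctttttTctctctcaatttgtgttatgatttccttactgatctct

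A pair between HLA-C and HLA-B differed in fold enrichment. The copy at chr6:31296365-31296604 belongs to an enhancer with a fold of 10.3 and the copy at chr6:31304882-31305121 to one with a fold of 18.6. They had 218 of 240 bases in common, with the differing bases in capitals, and the summit of the second enhancer lies outside the stretch shown.
HLA-B distal: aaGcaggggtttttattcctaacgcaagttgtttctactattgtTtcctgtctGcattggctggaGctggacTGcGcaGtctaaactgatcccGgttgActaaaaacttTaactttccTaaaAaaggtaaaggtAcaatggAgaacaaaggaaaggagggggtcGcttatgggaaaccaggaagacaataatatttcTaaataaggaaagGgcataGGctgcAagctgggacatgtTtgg
HLA-B proximal: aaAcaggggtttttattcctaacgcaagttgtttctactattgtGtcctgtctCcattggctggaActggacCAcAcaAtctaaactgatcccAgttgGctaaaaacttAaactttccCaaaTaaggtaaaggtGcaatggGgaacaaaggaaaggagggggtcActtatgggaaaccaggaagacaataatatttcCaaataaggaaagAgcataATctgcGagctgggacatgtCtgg

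The most active enhancer of the interval, upstream of the zinc finger gene ZNF322A, has a diverged copy further upstream. The stretches at chr6:26687117-26687356, from an enhancer with a fold of 23.9, and chr6:26705237-26705474, from one with a fold of 13.9, were identical in 218 of 240 aligned columns, gaps included. Capitals mark bases that differ or have no counterpart.
ZNF322A proximal: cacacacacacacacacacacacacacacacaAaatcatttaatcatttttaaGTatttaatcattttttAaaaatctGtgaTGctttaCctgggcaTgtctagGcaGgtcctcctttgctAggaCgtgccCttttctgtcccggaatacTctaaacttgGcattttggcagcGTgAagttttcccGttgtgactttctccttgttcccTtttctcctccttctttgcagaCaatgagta
ZNF322A distal: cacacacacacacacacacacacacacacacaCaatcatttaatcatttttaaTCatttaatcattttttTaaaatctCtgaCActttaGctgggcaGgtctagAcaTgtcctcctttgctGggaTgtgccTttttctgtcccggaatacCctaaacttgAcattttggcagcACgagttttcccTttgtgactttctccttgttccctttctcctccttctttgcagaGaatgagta

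The promoter of HLA-C is shown because HLA-C alone of the class I genes had an enhancer there, an open one with a fold of 3.77. It lies at chr6:31239914-31240156, and the gene is read from the minus strand. Capitals mark 4 words of the NF-Y motif CCAAT and 1 of the SP/KLF motif GGGCGG, each in either direction.
HLA-C: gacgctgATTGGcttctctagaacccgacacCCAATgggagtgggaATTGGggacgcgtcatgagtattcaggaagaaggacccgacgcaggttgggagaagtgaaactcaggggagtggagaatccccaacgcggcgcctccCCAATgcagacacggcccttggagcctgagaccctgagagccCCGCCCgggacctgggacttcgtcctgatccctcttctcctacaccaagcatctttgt

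The interval held 41.4 enhancers per Mb, against 30.7 per Mb over the rest of chromosome 6 and 30.5 over the genome. Closed enhancers stood at 33.4 per Mb against 28.7 over the rest of the chromosome. Open enhancers stood at 8.00 per Mb against 1.99, so the excess was greater for the open ones. The open share was 19.3% (15.6 to 23.6), against 6.48% of the 4970 other enhancers of chromosome 6 and 12.7% of all enhancers. The interval is rich in genes, with 33.4 genes of the mRNA-seq table per Mb against 6.73 over the genome, and the part of gene density in these counts was not tested.

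The segments differed more in their open than in their total enhancers. The class III segment of 0.882 Mb held 17 open and 24 closed enhancers, an open share of 41.5% (27.8 to 56.6), and it was also the segment with most genes, at 77.1 per Mb. The class II segment held 9 open and 14 closed enhancers (39.1% open), and the extended class II segment 13 open and 20 closed (39.4% open). In the class I segment 12 of 84 enhancers were open (14.3%), in the histone segment 15 of 125 (12.0%, 7.41 to 18.9), and in the zinc finger and olfactory receptor segment 6 of 67 (8.96%). Per Mb, density was highest in the class I segment, at 47.0, and lowest in the class II segment, at 33.0. Of words of 24 bases that start in the interval, 76.1% occur once in the genome, from 70.1% in the class III segment to 80.4% in the extended class II segment. Reads that aligned to several places were removed by the authors, and per Mb of words that occur once the class III segment was highest, at 66.3, before class I at 63.3, with class II lowest at 41.9.

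**Figure D1:**
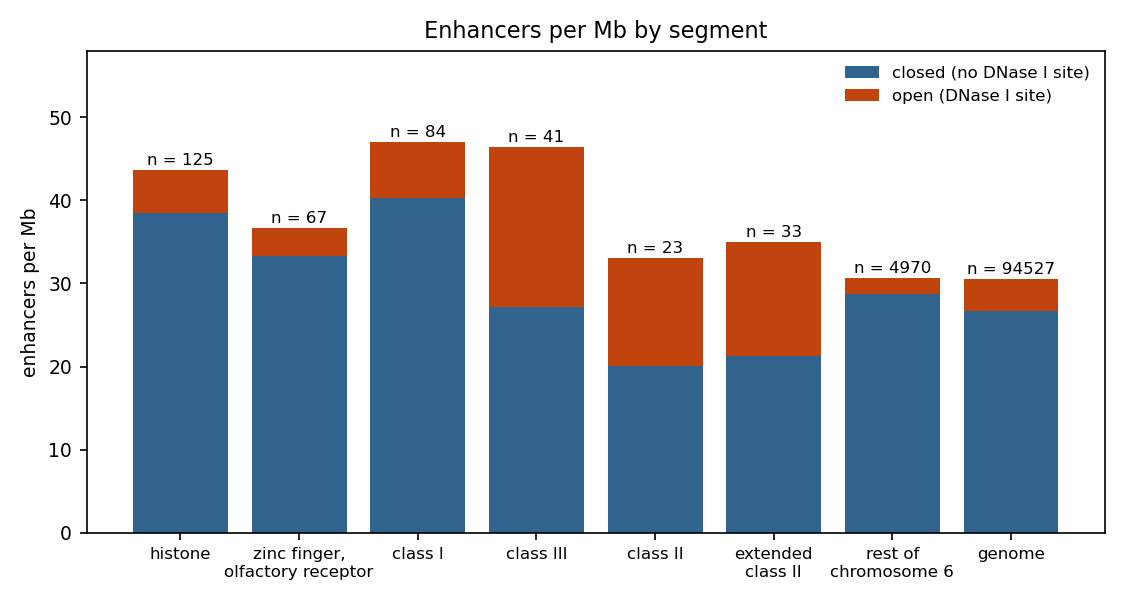
Enhancers per Mb (vertical axis) in the 6 segments, the rest of chromosome 6 and the genome, with closed enhancers in blue below open enhancers in orange and the number of enhancers above each bar. Open enhancers take 41.5% of the bar of the class III segment and 8.96% of that of the zinc finger and olfactory receptor segment.

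Neighbouring enhancers lay a median of 15.8 kb apart, and 71 gaps (19.1%) were under 5 kb. The largest gap ran from 32445919 to 32680659, a stretch of 235 kb in which no enhancer was called. The HLA-DRB5, HLA-DRB1, HLA-DQA1 and HLA-DQB1 genes, among the most variable of the human genome, start within it. In this stretch 70.9% of words of 24 bases occur once in the genome, and it held 1 ATAC site. The part of repeated sequence in this gap was not tested.

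The enhancers of the interval had a median fold enrichment of 3.11, close to the median of 3.13 over the rest of chromosome 6. The fold is the number of distinct output fragments over the summit against the scaled number of input fragments, each with a pseudocount of 1. In 31 enhancers (8.31%, against 14.2% of all) the scaled input was at its lowest value, the genome background of 8.40. There the fold is the output over a constant. Without these enhancers the median fold was 3.06. Open enhancers had a median of 3.02 and closed ones of 3.14. Values ranged from 1.62 to 23.9. The median number of output fragments was 65.5 in open and 48 in closed enhancers, and the scaled input was 21.9 and 14.1, so open enhancers were called from more fragments of both kinds at about the same ratio. Median GC content was 56.6% in open and 46.7% in closed enhancers. Of the 14 closed enhancers of the class II segment the median fold was 3.74, above the closed median of every other segment, which lay from 2.66 to 3.22. Their median output was 45 fragments, and their median scaled input of 10.9 was the lowest closed median of any segment. In 3 of the 14 the scaled input was at the background.

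The interval held 13 enhancers over 10-fold (3.49%, 2.05 to 5.87), against 1048 of all enhancers (1.11%). The 13 include pairs of copies, at MICA and MICB, near HLA-B and upstream of ZNF322A, and the counting interval treats copies as separate. A total of 6 lay in the class I segment, 3 in the histone segment and 1 in each of the others. Of the 13, 12 were closed, 2 were in promoters and none overlapped an ATAC peak in either condition. Over all 373 enhancers, 80.7% were closed, 21.7% were in promoters and 11.5% overlapped an ATAC peak. In 5 of the 13 none of the 9 consensus motifs searched was found within 300 bases around the summit. At least 1 was found in 257 of the 373, so most enhancers of both sets held a motif. The same count was not made over all enhancers. In 4 of the 13 the median word of 24 bases occurred in 2 copies. A median of 2 or more copies was found in 18.8% of the 373 and 17.8% of all enhancers.

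The strongest enhancer lay 27.3 kb upstream of ZNF322A in an exon of a noncoding gene, with a fold of 23.9 (21.6 to 26.4) from 390 output fragments against 15.3 scaled input fragments. Its copy 45.6 kb upstream had a fold of 13.9 (12.3 to 15.5) from 297 output fragments, and another copy nearby had 5.08. These intervals cover the output counts only and do not overlap. The copies were 89.6% to 90.0% identical in pairs over their aligned columns, and differences between them were not tested.

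In the class I segment the strongest enhancers were all closed and away from promoters. The strongest lay 19.7 kb downstream of the start of HLA-B, beyond the gene, with a fold of 18.6 (16.0 to 21.6). It came from 174 output fragments against a scaled input of 8.40, which is the genome background. Its copy 28.4 kb from that start had 10.3 (8.38 to 12.6), a lower value with no overlap of the intervals at 90.0% identity. The scaled input of this copy, and of the MICA enhancer given below, was also at the background. The difference between the copies was not tested. An enhancer 18.6 kb from the noncoding gene HCG27 had 15.2 (12.9 to 17.7). The enhancers 9.05 kb upstream of MICA and 7.23 kb upstream of MICB had 12.9 (10.7 to 15.4) and 11.4 (9.46 to 13.7), whose intervals overlap, at 97.6% identity over 709 columns. Only 14.1% of the words of the MICA copy and 11.9% of those of the MICB copy occur once in the genome, and reads that aligned to both copies were left out of both counts.

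Of the other closed enhancers over 10-fold, 1 lay in an intron of CMAH at 10.4 (8.48 to 12.7), with its scaled input also at the background. An enhancer 2.90 kb downstream of the start of TNF, the gene of tumour necrosis factor, had a fold of 10.3 (9.01 to 11.8) from 221 output fragments. TNF itself was at the lowest level in the mRNA-seq table. An enhancer 17.6 kb downstream of the start of HLA-DRA had 10.1 (8.27 to 12.3). The promoter of UBD, which encodes the ubiquitin-like modifier FAT10, 25 bases upstream of the start, had 9.55 (7.92 to 11.4), and its gene was at −2.47 log2 CPM. The closed promoter of ZNF323, a zinc finger gene, had 13.1 (11.7 to 14.6) from 334 output fragments. In the extended class II segment the strongest closed enhancer, within an intron of ITPR3, which encodes a calcium release channel, had 3.66.

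Among open enhancers 1 stood far above the rest. It lay in the promoter of TAPBP, which encodes tapasin of the peptide-loading complex, 54 bases upstream of the start at 33281378 to 33282095, with a fold of 15.1 (13.7 to 16.6) from 436 output fragments, the most of any enhancer in the interval. The next was the promoter of ABT1, which encodes an activator of basal transcription, at 8.45 (7.27 to 9.77). It was followed by BTN3A3, a butyrophilin, at 6.03 (4.74 to 7.58) and a site 10.2 kb from HCG9 at 5.32. BRD2, which encodes a bromodomain protein that reads acetylated histones, had 5.19 (4.18 to 6.39) at 636 bases inside the gene. MRPS18B, of the mitochondrial ribosome, had 4.73, BTN3A2 4.68 and IP6K3, an inositol phosphate kinase gene, 4.67. All of these except TAPBP lay below 10-fold. The strongest open enhancers of the class III and of the zinc finger and olfactory receptor segments had 4.47 each, in the promoter of the RNA helicase gene BAT1 (DDX39B) and in a promoter 28.2 kb from the start of TRIM27.

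**Figure D2:**
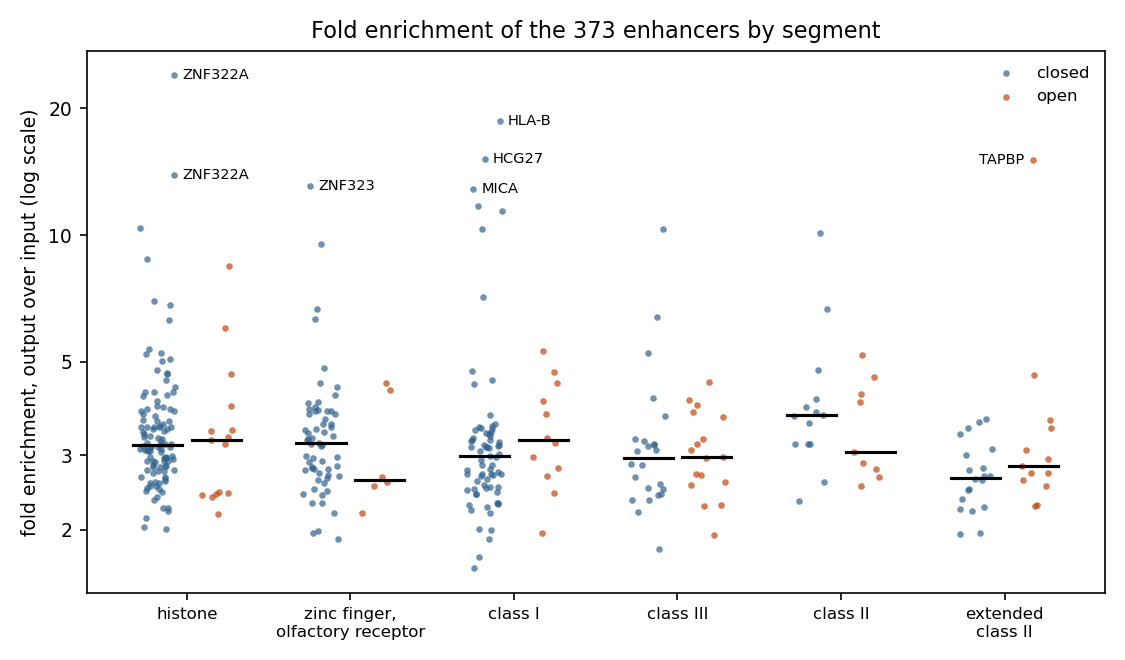
Fold enrichment (vertical axis, log scale) of each of the 373 enhancers by segment, with closed enhancers in blue and open enhancers in orange, black bars at the medians, and the nearest gene written beside the 7 highest points, which are spread sideways only for display. The medians differ little, and 12 of the 13 points over 10 are closed, as are 80.7% of all points.

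Enhancers of the interval lay close to gene starts. Of the 373, 81 (21.7%, 17.8 to 26.2) had their centre in a promoter, from 1000 bases upstream to 100 downstream of a start, against 4.31% over the rest of chromosome 6 and 6.24% of all enhancers. This held for 51 of the 72 open enhancers (70.8%, against 28.8% of all open enhancers) and for 30 of the 301 closed ones (9.97%, against 2.97%). Of the others, 114 were in introns, 133 between genes, 39 in exons and 6 in UTRs. Open enhancers lay a median of 0.178 kb from the nearest start, and closed ones a median of 10.4 kb. Enhancers in promoters had a median fold of 2.97 and those elsewhere of 3.15. Counted by gene, 67 of the 301 genes of the interval (22.3%, 17.9 to 27.3) had an enhancer in a promoter, against 19.2% of 20844 placed genes, so per gene the difference was small.

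In the histone segment 11 enhancers lay within 1000 bases of the start of a histone gene, 7 open and 4 closed. Their folds ran from 2.01 to 4.04 with a median of 2.60, below the median of 3.11 of the interval, from 43 to 74 output fragments. The open ones were at HIST1H3B with 3.43, HIST1H1E with 3.26, HIST1H2BJ with 3.19, HIST1H2AD with 2.44, HIST1H4E with 2.42, HIST1H3A with 2.39 and HIST1H4H with 2.18. The closed ones were at HIST1H2BE with 4.04, HIST1H4L with 3.46, HIST1H3C with 2.60 and HIST1H2AK with 2.01. Neighbouring histone genes are often read in opposite directions from a shared promoter, so 1 enhancer can stand for several genes. The most active enhancer nearest to a histone gene was a closed one 5.75 kb upstream of HIST1H2BE at 6.97, which had a copy of 93.0% identity on the opposite strand near NCRNA00240 at 6.81. Another copy, 92.1% identical to the one near HIST1H2BE, lay near POU5F1 and had 3.00. The sequence is repeated, with a median of 49 copies in the genome of the words of 24 bases at the HIST1H2BE enhancer.

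The butyrophilin genes encode membrane proteins of the immunoglobulin family, of which BTN3A1 takes part in phosphoantigen recognition by gamma delta T cells. The starts of the BTN3A genes each had an open enhancer, and these were copies of one another at 81.9% to 90.5% identity. BTN3A1 had a fold of 2.46 (1.68 to 3.48), BTN3A2 4.68 (3.54 to 6.09) and BTN3A3 6.03 (4.74 to 7.58). With the scaled input held fixed, the interval of BTN3A1, from 30 output fragments, lies just below those of the other 2, which overlap each other. Differences between these copies were not tested. The promoter of BTN2A1 had 3.45, and BTN3A2 had a second, closed enhancer in its promoter at 3.18.

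Of the 19 zinc finger and SCAN genes placed, 5 had an enhancer in a promoter. ZNF323 had closed ones at 13.1 and 4.35, ZNF165 one at 3.67 and ZSCAN23 one at 2.95, whereas ZNF187 had an open one at 4.30 and ZNF192 one at 2.54. Open enhancers also lay 669 bases inside ZNF323 at 2.60 and 504 bases inside ZNF165 at 2.18. Of 14 olfactory receptor genes, none of which had a promoter in an ATAC list, 2 had an enhancer in a promoter, OR5V1 and OR11A1, and this was the same closed enhancer at 2.70.

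The class I genes themselves had few enhancers at their starts. Of 8 genes, only HLA-C had one, the open enhancer at 3.77 (2.74 to 5.06) from 42 output fragments. The peptide-loading genes differed from them, since 4 of 5 had an open enhancer in a promoter. TAPBP had 15.1, TAP2, which encodes a subunit of the peptide transporter, had 4.02, and the immunoproteasome gene PSMB8 had 2.78. The enhancer between TAP1 and PSMB9, which are read in opposite directions, had 3.06 and lay 123 bases inside TAP1, in a promoter of PSMB9. None of the 13 class II genes had an enhancer in a promoter, a share with an interval of 0 to 22.8%. Open enhancers lay 396 bases inside HLA-DOA at 4.62 and 217 bases inside HLA-DOB at 4.19.

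In the class III segment, C2, of the classical complement pathway, had a closed enhancer at 3.24 in its promoter and an open one 680 bases inside the gene at 2.96. The open enhancers near C4A and CYP21A2 were copies of each other, 98.5% identical over 542 columns, with folds of 3.71 and 3.80. The cytokine genes LTA, LTB and TNF and the heat shock genes HSPA1A, HSPA1B and HSPA1L had none in a promoter. BRD2 had open enhancers in its promoters at 2.88 and 2.67, beside the stronger one inside the gene. Of the tripartite motif genes, TRIM26 had an open enhancer at 2.97 and TRIM10 a closed one at 2.30.

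Consensus words were searched on both strands in 300 bases around each summit, and the same search over all enhancers gives the level to set them against. No word contains another. The ETS word CCGGAAG was found in 5.63% of the enhancers of the interval against 2.21% of all, and in 16.7% (9.80 to 26.9) of the open ones against 8.85% of all open ones. The SP/KLF word GGGCGG was found in 12.3% against 8.03%, and in 33.3% of the open ones against 27.4%. The NF-Y word CCAAT was found in 38.3% (33.5 to 43.4) against 33.4%. The AP-1 word TGANTCA was found in 8.85% (6.37 to 12.2) against 11.6%. The interferon response word GAAANNGAA was found in 9.12% against 8.92%, and in 12.5% (6.72 to 22.1) of the open ones against 6.81%. The forkhead word TGTTTAC stood at 5.63% against 4.71%, the E-box CACGTG at 4.02% against 4.73%, and the CRE word TGACGTCA at 0.536% against 0.299%.

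ATAC-seq peaks were listed once for the pooled vehicle libraries and once for the pooled TSA libraries, and sites are set side by side here without a test, since the per-site comparison in the authors' table was not used. The interval held 157 ATAC sites. A total of 78 (49.7%, 42.0 to 57.4) overlapped a peak of the TSA list and none of the vehicle list, against 25.9% of all 51909 sites. Only 6 (3.82%) were in the vehicle list alone, against 21.6% of all sites, and the other 73 were in both. In the rest of chromosome 6, 28.5% of sites were in the TSA list only.

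Of the segments, the histone segment had the highest share of sites in the TSA list only. There 33 of 44 sites (75.0%, 60.6 to 85.4) were in the TSA list only and 1 was in the vehicle list only. Of its sites that hold the start of a histone gene, 7 of 10 were in the TSA list only, and of its other sites 26 of 34. The shares were 10 of 20 in the extended class II segment, 17 of 38 in the zinc finger and olfactory receptor segment, 8 of 21 in the class III, 8 of 27 in the class I and 2 of 7 in the class II segment. Among 1167 windows of 1 Mb with at least 20 sites in the genome, the window from 26 Mb had the highest share in the TSA list only, 18 of 21 (85.7%), and that from 27 Mb the second highest, 17 of 24 (70.8%). The median window had 24.1%. The windows from 33 and 28 Mb had 50.0% and 46.7%.

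The lists were cut at close but unequal numbers of peaks, 38813 for vehicle and 40995 for TSA, and many sites lay near the cut. With the same number of peaks in both lists, 44.6% of the sites of the interval and 70.5% of those of the histone segment were in the TSA list only, against 22.8% of all sites. In another setting, sites were kept where their highest Fseq score in either list was at least 0.05. These sites were still classed by the full lists, so a vehicle peak under 0.05 still counted. The share in the TSA list only was then 25 of 90 sites (27.8%) in the interval. It was 13 of 23 (56.5%) in the histone segment, against 13.3% of all. The TSA-only sites of the interval had a median Fseq score of 0.0457 and a minimum of 0.0380. A site in 1 list need not be absent from the other condition, since it may lie just below the cut there.

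**Figure D3:**
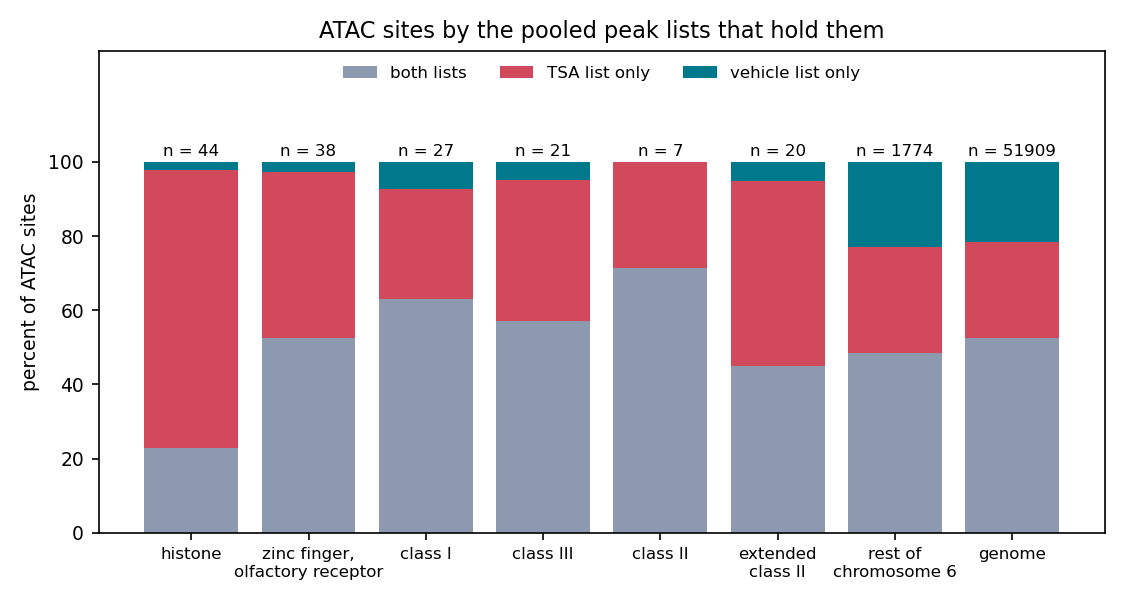
Percent of ATAC sites (vertical axis) in both pooled lists, in the TSA list only and in the vehicle list only, for the 6 segments, the rest of chromosome 6 and the genome, with the number of sites above each bar. The TSA-only part takes 75.0% of the histone bar and 25.9% of the genome bar.

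**Figure D4:**
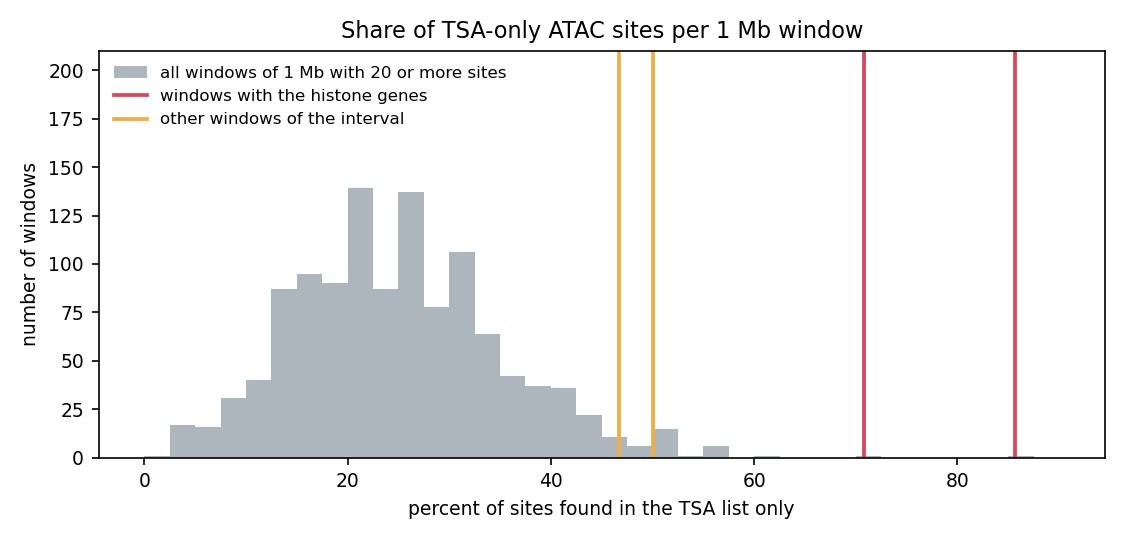
Number of windows of 1 Mb (vertical axis) by the percent of their ATAC sites in the TSA list only (horizontal axis), over 1167 windows with at least 20 sites, with red lines at the windows from 26 and 27 Mb and orange lines at those from 28 and 33 Mb. Both red lines, at 85.7% and 70.8%, lie above every other window, and the median window had 24.1%.

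Of the enhancers of the interval, 42 were in a peak of the TSA list and 23 in one of the vehicle list. A total of 20 (5.36%) were in the TSA list only, against 2.2% of all enhancers, and 1 (0.268%) was in the vehicle list only, against 0.769%. The other 330 were in neither list. Of the 20, 16 were open and 4 closed, and 16 lay in a promoter or within 1000 bases of a start. The strongest were ABT1 at 8.45, BRD2 at 5.19 and BAT1 at 4.47. They were followed by a closed enhancer in an intron 13.9 kb from C6orf10 at 4.11, CSNK2B, a subunit of casein kinase 2, at 4.06, HLA-C at 3.77, the closed promoter of ZNF165 at 3.67 and the ribosomal protein gene RPS18 at 3.64. Fseq scores of the 20 ran from 0.0386 to 0.0691 with a median of 0.0496, and 2 lay above the median of 0.0588 of the TSA list. Of the 20, 2 lay in a merged ATAC site that also held a vehicle peak elsewhere, those at BRD2 and HIST1H2AK, so the enhancer lacked a vehicle peak but the site did not. The enhancer in the vehicle list only lay in the promoter of LEMD2, which encodes a protein of the inner nuclear membrane, at 2.54 with a score of 0.0405.

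The DNase I scores of the open enhancers followed the ATAC lists. The 22 in the vehicle list had a median score of 0.301, the 16 in the TSA list only 0.145 and the 34 in neither list 0.0967. Their ranges overlapped, from 0.0603 to 0.808, from 0.0352 to 0.435 and from 0.036 to 0.426. The median fold enrichments were 2.73, 3.38 and 3.23. The open promoter of TAPBP, with a DNase I score of 0.160, was in neither list. Of the ATAC sites, 42 of 157 (26.8%) held an enhancer, against 14.8% of all sites. The sites of highest average over all libraries lay at 29599755 to 29601751 beside GABBR1, a GABA receptor gene, at 5.69 log2 CPM, at 32162766 to 32164592 beside GPSM3 at 5.56 and at 33264814 to 33268284 beside RGL2 at 5.52. The first 2 were in both lists and the last in the TSA list only, and none held an enhancer.

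Promoters of histone genes were also read against the lists. Of 51 placed histone genes, 9 (17.6%) had a promoter in the TSA list only, against 5.73% of all placed genes, 6 in both lists and 36 in neither. The 9 were HIST1H1C, HIST1H2BC, HIST1H2AC, HIST1H4E, HIST1H2AE, HIST1H4H, HIST1H2AL, HIST1H2AM and HIST1H2BO. Over all 301 genes of the interval, 42 (14.0%) were in the TSA list only. Of the histone-near enhancers, 3 were in the TSA list only, those at HIST1H4E, HIST1H4H and HIST1H2AK, of which the last lies in a site and beside a promoter of both lists. Another 1 was in both lists and 7 were in neither.

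Levels of mRNA were compared per length, as log2 CPM per kb of exon, from the authors' average over libraries, which was not split by condition here. The linker histone gene HIST1H1C had the highest level of the histone genes, 8.56. The median was 4.42 for the 9 histone genes in the TSA list only, 2.47 for the 6 in both lists and 0.00 for the 36 in neither. Their ranges overlapped, from 0.44 to 8.56, from −0.58 to 7.48 and from −2.14 to 3.24. HLA class I genes had a median of 4.42, with HLA-C highest at 6.80 and MICB lowest at 1.69, and class II genes one of 0.30. The olfactory receptors had a median of −3.79. C4A and C4B were listed at the same level, 2.58, and with HSPA1A and HSPA1B are near-identical copies whose reads cannot be told apart with confidence, which also holds for overlapping genes because the use of strand in counting is not given in the sources used here.

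**Figure D5:**
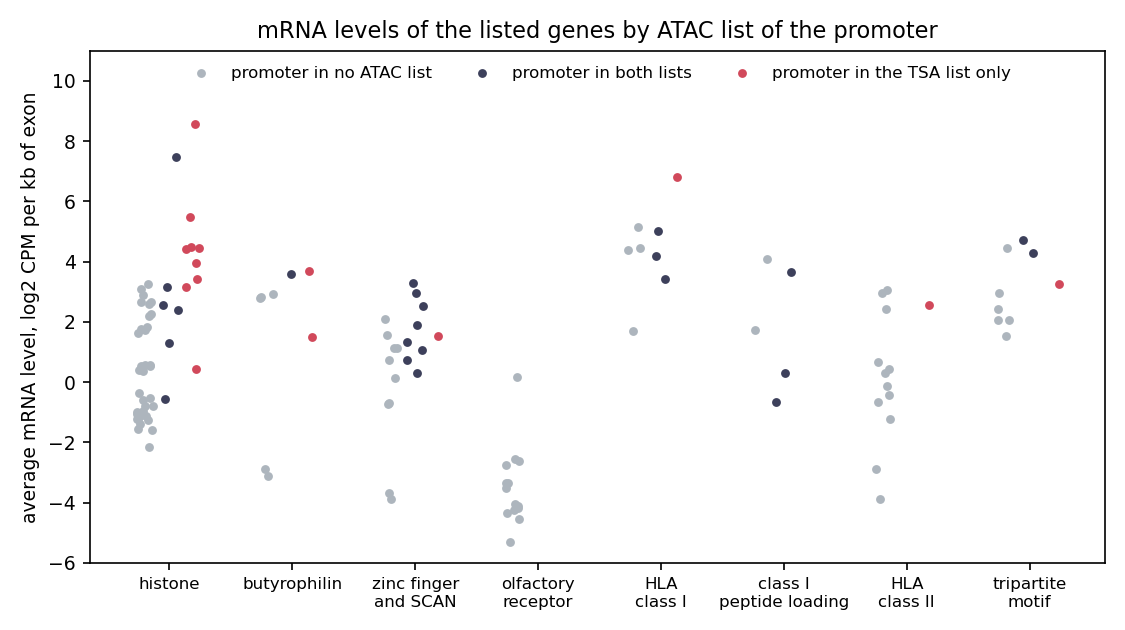
Average mRNA level in log2 CPM per kb of exon (vertical axis) of the listed genes by family, colored by whether the promoter was in no ATAC list (grey), in both (dark) or in the TSA list only (red). Histone genes in the TSA list only reach 8.56 and olfactory receptor genes lie at or below 0.15.

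Among the HLA class I genes, HLA-E and HLA-F had a promoter in both lists and HLA-C in the TSA list only, while HLA-B, HLA-G, MICA and MICB were in neither. Of the peptide-loading genes, PSMB8, PSMB9 and TAP1 were in both lists and TAP2 and TAPBP in neither. Of the 13 class II genes, HLA-DMA, which helps to load peptides, was in the TSA list only and the others were in neither. In the heat shock list HSPA1B was in the TSA list only. Of the 9 tripartite motif genes, TRIM39 was in the TSA list only and 2 were in both. The 3 cytokine and 4 complement genes were in neither list. The level of the genes nearest to open enhancers, not divided by exon length, had a median of 4.86 log2 CPM, against 2.39 for closed enhancers. Over all enhancers of the genome these medians were 4.30 and 2.33, a similar split.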

How the data were processed

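WHG-STARR-seq (1 input and 2 output libraries) gave enhancer activity, ATAC-seq accessibility and mRNA-seq expression. To list enhancers, the authors mapped reads on hg19 by Bowtie, dropped multi-mapping reads, collapsed equal fragments per index library by Picard, merged the outputs and called peaks with MACS2 at q under 0.05 against the input. The deposited lists give a score, the ratio of output over input (fold enrichment), and −log10 p-values and −log10 q-values. The DNase I score, which the authors joined from outside data, and the Fseq score of each ATAC peak are signal values. Fseq scores come from pooled libraries after Bowtie, cutadapt, Bowtie2 and Picard. The authors' edgeR tables hold, as deposited, an average in log2 CPM per site or per gene (reads aligned with TopHat). Their fold changes, likelihood ratios, p-values and q-values compare TSA with vehicle and were not used. Versions of these tools: not given in the sources used here. No value per library was analysed, so depth per library is unknown here. For the input library the labels and the methods give different numbers of PCR reactions.

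Output fragments and scaled input were taken from the deposited ratio and p-value with a pseudocount of 1, and this was tested on simulated data. Start sites came from GENCODE lifted to GRCh37, matched by symbol and older symbol (51 of 55 histone genes). Overlap means 1 shared base. Uniqueness was counted over words of 24 bases. Python 3.11.15, numpy 2.4.6, pandas 2.3.3, scipy 1.17.1, numba 0.67.0, Biopython 1.88 and matplotlib 3.10.9 were used. No test was run, since the values used pool the replicates. Named regions were the 8 open and 8 closed enhancers of highest fold, the strongest of each segment, those in promoters of listed genes, up to 8 in 1 ATAC list only and the 3 sites of highest average; other enhancers named were chosen after their values were seen. The members and lists were chosen with earlier results of these data known. Alternatives covered q-values, pseudocount, promoter size, overlap, list size and unique sequence. Some listed genes, a motif and a sequence are not reported here.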

Additional observations from a re-analysis of the deposited data

How the results depend on the processing

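Of 31 alternatives over 19 results, 16 left the value within its interval or within 1.5 times and 15 did not. At a q-value under 1e-10 the enhancers of the interval fell to 154 and their open share rose to 29.9%. With a vehicle ATAC peak in place of a DNase I site the open share was 6.17%. Without a pseudocount the median fold was 3.29. Per Mb of sequence whose words occur once in the genome, density was 54.5. Of the others, the motif counts rose over whole peaks in place of 300 bases. Alternatives for the ATAC sites were chosen after seeing the data. The share in the TSA list only was 44.6% with equal lists and 52.2% in sites without an enhancer. It was 27.8% in sites whose highest score in either list was at least 0.05, classed by the full lists. Leaving out each replicate was not possible because replicates were pooled before peak calling. No paired analysis was possible because the result comes from no test and the peak lists pool the replicates. Depth limits the folds through as few as 25 output fragments.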
